A study of Mus musculus with 16 samples.

Results

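Mitochondrial ribosomal protein genes were followed in growing mouse oocytes that had lost the histone deacetylases HDAC1, HDAC2 or both. A gene was included where a probe set carried exactly 1 symbol beginning with Mrpl or Mrps and a digit, pseudogenes left out, and where a gene had several probe sets the brightest on average stood for it. This gave 74 genes, read by 87 probe sets, out of 18820 genes and 21218 probe sets with exactly 1 symbol. Of the 74, 46 carry an Mrpl and 28 an Mrps symbol.

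RNA came from oocytes of 12-day-old mice of C57BL/6 background, with 80 oocytes in each sample, and was amplified and hybridized to 16 Affymetrix Mouse 1.1 ST arrays. There were 4 arrays for each of 4 genotypes: wild type, a knockout of Hdac1, a knockout of Hdac2, and a double knockout of Hdac1 and Hdac2. The knockouts combined conditional alleles with a Zp3-Cre transgene, whose promoter is active in growing oocytes, so the genes were deleted while the oocyte was already growing. The labels do not say whether the wild-type mice carried the transgene or the conditional alleles. Replicates are called biological by the labels, and each is a pool of cells.

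Mitochondrial ribosomes translate the few proteins that mitochondrial DNA encodes, all of them core parts of the respiratory chain and ATP synthase. Their RNA comes from mitochondrial DNA, but every one of their proteins is encoded in the nucleus, made in the cytosol and imported, so a working ribosome needs a set of nuclear genes to be expressed together. Some of these proteins have counterparts in bacterial ribosomes and others are found only in mitochondria. Oocytes accumulate mitochondria as they grow and pass them to the embryo. HDAC1 and HDAC2 are related enzymes that remove acetyl groups from histones within shared corepressor complexes, and loss of one can be covered in part by the other.

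The labels were checked against the targeted genes first. The Hdac1 probe set fell in the Hdac1 knockout to 15.8% of its wild-type level (log2 difference -2.66 ± 0.08, SE, limma adjusted p = 3.97e-12) and in the double knockout to 32.5%. The Hdac2 probe set stood at 93.48% in the Hdac2 knockout (limma adjusted p = 0.33) and at 86.18% in the double knockout (0.00274), so it did not show the deletion and is no check of the Hdac2 labels, since the exons it reads are not known here. All 12 oocyte markers were measured. Their mean level lay between 11.52 and 11.55 on the wild-type arrays and between 11.47 and 11.49 on the double-knockout arrays. Figla fell by 0.56 (limma adjusted p = 0.000261) and Kit by 0.17 (0.0154), and the other oocyte markers did not pass the test. The 9 measured granulosa markers averaged 4.935 to 5.105 in wild type and 4.95 to 5.10 in the double knockout; of these Nr5a2 (-1.07) and Kitl (-0.37) fell, Wt1 (0.56) and Inha (0.59) rose and the other 5 did not pass the test. The 7 measured theca and stroma markers averaged 3.84 to 3.93 and 3.92 to 3.97. Of these Acta2 rose by 0.31 (limma adjusted p = 0.0144) and the others did not pass the test. The 6 measured blood, immune and endothelial markers averaged 4.695 to 4.825 in wild type and 4.528 to 4.625 in the double knockout, a difference carried by Pecam1 (8.42 and 7.04); Cd68 rose by 0.38 and the other 4 did not pass the test. The part of these marker differences in the results was not tested. Arrays of one genotype correlated at 0.9925 to 0.9954 over all probe sets of the table.

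Levels and differences are given on the authors' log scale, which is taken to have base 2. In wild type the group means of the members ran from 5.19 for Mrps34 to 11.47 for Mrps33, and 73 of 74 lay at or above the median of the tested probe sets over all arrays. Mrps33 (11.47 ± 0.06, SD, n = 4), Mrps22 (10.99 ± 0.05) and Mrpl48 (10.92 ± 0.02) read highest, and Mrps34 (5.19 ± 0.16), Mrpl33 (5.36 ± 0.05) and Mrpl19 (6.11 ± 0.09) lowest. In people, inherited defects of MRPS22, a small-subunit protein, have been linked to ovarian failure. Probe sets differ in how strongly they bind, so this order is not an order of transcript amounts. In pooled oocytes, fewer cells holding a transcript and less of it per cell cannot be told apart.

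Loss of both deacetylases changed a minority of the mitochondrial ribosomal protein genes, in both directions and by small amounts. In the double knockout against wild type 14 members rose, 10 fell and 50 did not pass the test (limma, adjusted p under 0.05 over 21218 probe sets). That is 32.4% of members, against 38.3% of all probe sets tested (18.5% higher and 19.8% lower) and 57.6% of the 10609 probe sets in the brighter part of the array, where 73 of the 74 members lie. The largest rise was that of Mrpl52, 1.59-fold, and the largest fall that of Mrpl36, to 63.07% of wild type. The median change over the 74 members was -0.02 and the mean 0.02, beside a median of -0.01 over all tested probe sets, and the middle of the distribution lay between -0.13 and 0.15 (quartiles). The split moved with the scaling: 10 higher and 24 lower after centring each array on its median, and 14 and 14 after quantile normalization. Over all tested probe sets it moved from 3924 higher and 4198 lower to 2878 and 6275, and to 3382 and 5025; the all-probe-set median was between 5.32 and 5.35 on the double-knockout arrays and between 5.20 and 5.26 on the other 12. All of the 10 members called lower stayed so under both scalings, and of the 14 called higher only Mrpl10, Mrpl37, Mrpl55 and Mrps18b were lost, under centring.

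**Figure D1:**
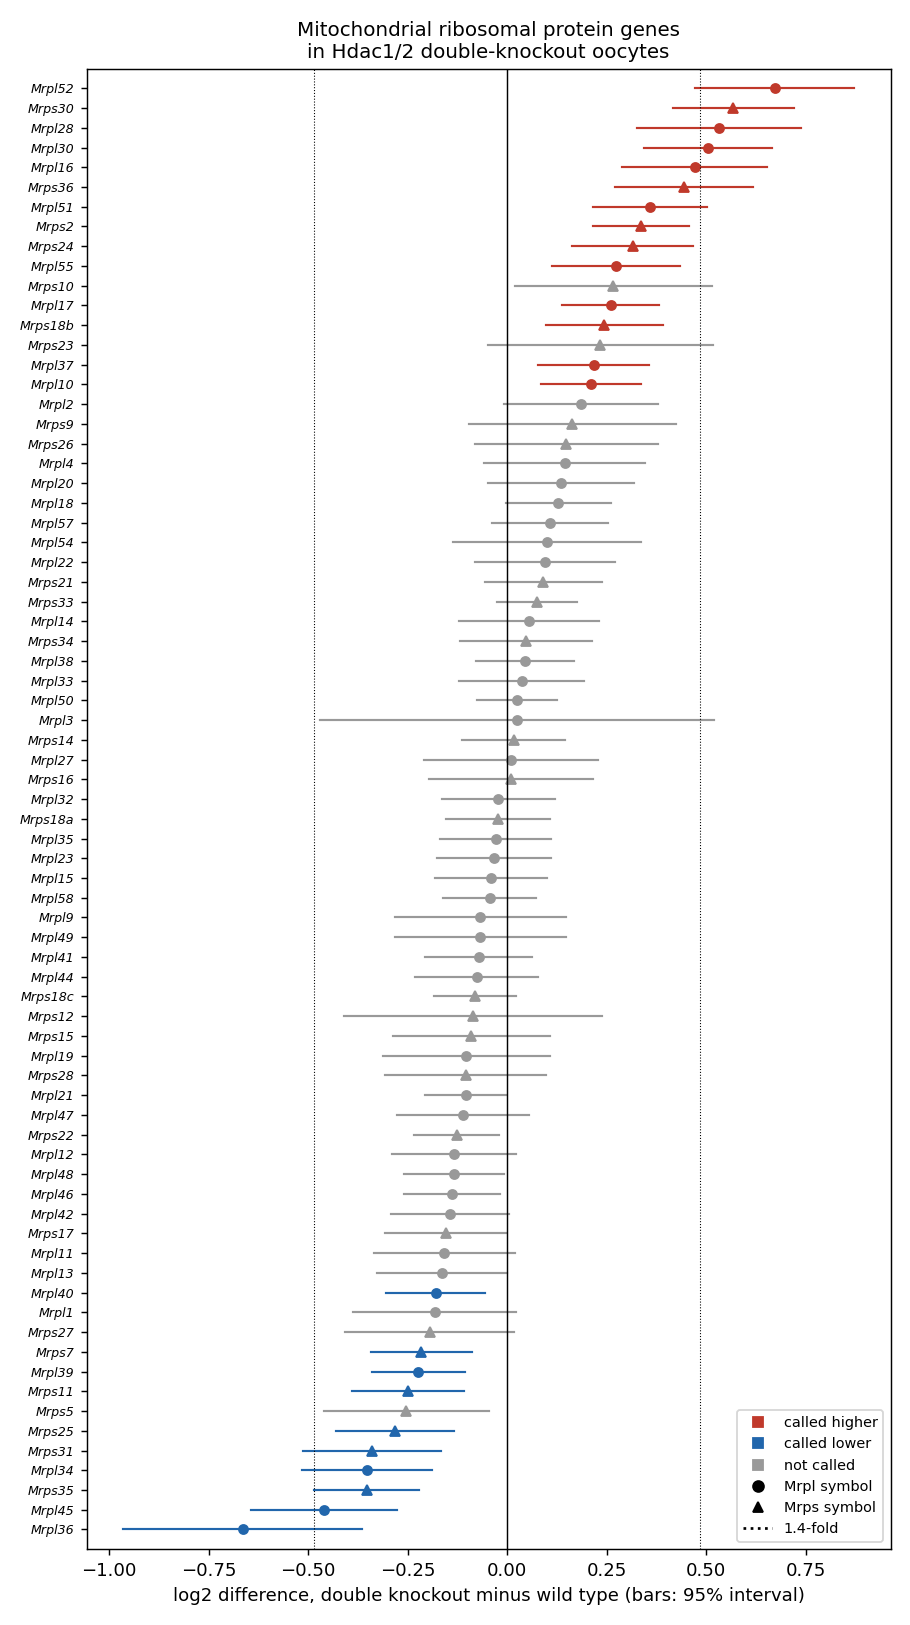
The change of each of the 74 members in the double knockout against wild type, on the log2 scale. Points are log2 differences and bars their 95% intervals from the linear model; coloured points passed the test, 14 of them higher and 10 lower (10 and 24 after centring each array), and most of the other 50 lie close to 0.

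The size of the changes was set beside that of all tested probe sets and of the brighter ones, without a test of the difference. A change of at least 1.4-fold, the limit named in the study's design text, together with the call was met by 5 members, Mrpl52, Mrps30, Mrpl28 and Mrpl30 upward and Mrpl36 downward. That is 6.76% of members, beside 16.4% of all probe sets and 24.7% of the brighter ones. The median size of change without regard to sign was 0.14 for members, 0.15 for all probe sets and 0.25 for the brighter ones, and the 90th percentile of that size was 0.42, 0.66 and 0.81. For 60 of the 74 members (81.1%) the 95% interval of the change lay wholly within 1.4-fold in either direction. Beside this stood 69.8% of all probe sets and 57.5% of the brighter ones. The 60 included 47 of the 50 members that did not pass the test. The exceptions among those 50 were Mrpl3, with an interval of -0.47 to 0.52, Mrps10 (0.02 to 0.51) and Mrps23 (-0.05 to 0.52), named here after their values were seen. The double-knockout arrays lay all above the wild-type arrays for 15 members and all below for 12, together 36.5% of members beside 35.8% of all probe sets.

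The members with the largest rises and falls are shown with the 250 bases before their RefSeq start (GRCm38.p6, 5′ to 3′ in the direction of the gene), since promoters of this gene family are known for shared binding motifs of general activators. Capitals mark matches to a form of the NRF1 motif (GCGCA and GCGC with any base between them), to CCGGAAG, the ETS core bound by GABPA, or to AAGATGGC, a form of the YY1 motif, on either strand. The windows are chr14:54426659-54426908 (plus strand) for Mrpl52, chr13:118387253-118387502 (minus strand) for Mrps30, chr13:73330759-73331008 (plus strand) for Mrpl36 and chr11:97315466-97315715 (plus strand) for Mrpl45.
Mrpl52 promoter: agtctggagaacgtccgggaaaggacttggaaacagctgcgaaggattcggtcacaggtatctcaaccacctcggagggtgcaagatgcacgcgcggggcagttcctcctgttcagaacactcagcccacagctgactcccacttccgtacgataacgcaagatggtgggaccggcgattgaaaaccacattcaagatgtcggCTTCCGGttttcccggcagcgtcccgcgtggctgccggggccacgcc
Mrps30 promoter: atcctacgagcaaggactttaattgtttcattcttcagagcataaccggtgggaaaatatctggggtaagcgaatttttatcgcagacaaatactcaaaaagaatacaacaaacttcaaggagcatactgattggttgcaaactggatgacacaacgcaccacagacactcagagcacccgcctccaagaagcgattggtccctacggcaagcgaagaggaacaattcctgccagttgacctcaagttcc
Mrpl36 promoter: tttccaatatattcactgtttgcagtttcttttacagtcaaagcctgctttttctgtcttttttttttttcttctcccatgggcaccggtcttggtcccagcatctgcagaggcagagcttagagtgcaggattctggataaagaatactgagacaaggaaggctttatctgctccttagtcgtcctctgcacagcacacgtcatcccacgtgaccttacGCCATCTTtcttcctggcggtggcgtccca
Mrpl45 promoter: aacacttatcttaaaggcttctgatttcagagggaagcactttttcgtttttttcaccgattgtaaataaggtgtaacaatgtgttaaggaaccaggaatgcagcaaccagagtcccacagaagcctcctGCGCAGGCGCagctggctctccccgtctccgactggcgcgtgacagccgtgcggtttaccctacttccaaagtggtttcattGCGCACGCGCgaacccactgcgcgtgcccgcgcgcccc
Mrpl52 holds 1 GABPA match, whose last base lies 41 bases before the start, Mrps30 no match, Mrpl36 1 YY1 match at 23 bases and Mrpl45 a pair of NRF1 matches at 111 and 29 bases.

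Promoter entries were matched by symbol for 65 of the 74 members. NRF1 letters were present in 15.4% of the 65, against 4.23% of the 27025 genes with promoter entries. GABPA letters were present in 24.6% against 7.83%, and YY1 letters in 6.15% against 1.83%. A gene with several entries was counted where any of them held a match. The members' promoters had a median GC content of 58% against 52.4%, and its part in the match rates was not tested. Among the 14 members that rose 2 held NRF1 letters, 3 GABPA and 0 YY1. Among the 9 with an entry that fell the numbers were 2, 1 and 2, and among the 42 that did not pass the test 6, 12 and 2. A match is a stretch of letters and not a measured binding site.

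Mrpl52 encodes a protein of the large subunit found only in mitochondria. It read 8.01, 8.08, 7.64 and 7.89 on the wild-type arrays and 8.63, 8.56, 8.53 and 8.58 on the double-knockout arrays. All double-knockout values lay above all wild-type values. The difference was 0.67 ± 0.09 (SE, limma adjusted p = 2.39e-05). The single knockouts read 7.82 ± 0.13 and 7.81 ± 0.15 (SD, n = 4, Hdac1 and Hdac2), both overlapping wild type.

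Mrps30 has a small-subunit name, but its protein sits in the large subunit. Its values were 6.89, 6.78, 6.79 and 6.72 in wild type and 7.28, 7.42, 7.38 and 7.37 in the double knockout. The groups did not overlap, and the difference was 0.57 ± 0.07 (SE, limma adjusted p = 8.12e-06). The Hdac1 knockout read 6.68 ± 0.08 and the Hdac2 knockout 6.77 ± 0.16 (SD). A second, dim probe set for the gene read 3.99 in wild type and 3.97 in the double knockout (limma adjusted p = 0.929).

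Mrpl28 and Mrpl30 encode large-subunit proteins with bacterial counterparts. Mrpl28 read 7.66, 7.63, 7.32 and 7.52 in wild type and 7.87, 8.05, 8.12 and 8.21 in the double knockout, a rise of 0.53 ± 0.10 (SE, limma adjusted p = 0.000323). Mrpl30 read 8.75, 8.67, 8.56 and 8.79 in wild type and 9.19, 9.15, 9.24 and 9.21 in the double knockout, a rise of 0.50 ± 0.08 (4.9e-05). For both genes the double-knockout arrays stood clear of all other arrays. Mrpl16, another large-subunit protein with a bacterial counterpart, went from 8.32 ± 0.08 (SD, n = 4) to 8.79 ± 0.07, with double-knockout values of 8.73, 8.73, 8.85 and 8.86, and rose by 0.47 ± 0.09 (0.000294).

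Genes listed with the small subunit that rose were Mrps36, Mrps2, Mrps24 and Mrps18b. Mrps2, with a bacterial counterpart, went from 7.58 ± 0.09 (SD, n = 4) to 7.91 ± 0.10, a rise of 0.34 ± 0.06 (SE, limma adjusted p = 0.000154), and Mrps24 from 9.09 ± 0.14 to 9.40 ± 0.12 (0.32 ± 0.07, 0.00209). Mrps36 went from 8.30 ± 0.12 to 8.74 ± 0.13 (0.44 ± 0.08, 0.000335). Its protein was first assigned to the small subunit and is also known as a component of the alpha-ketoglutarate dehydrogenase complex of the citric acid cycle. Mrps36 also read 8.52 ± 0.09 in the Hdac2 knockout, between wild type and the double knockout, a difference of 0.22 from wild type that did not pass the test (limma adjusted p = 0.151).

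Of the other large-subunit genes that rose, Mrpl51 went from 10.11 ± 0.05 (SD, n = 4) to 10.47 ± 0.09 (limma adjusted p = 0.000395), Mrpl55 from 9.49 ± 0.10 to 9.76 ± 0.09 (0.00817), Mrpl17 from 8.02 ± 0.05 to 8.28 ± 0.05 (0.00158) and Mrpl10 from 8.70 ± 0.07 to 8.91 ± 0.06 (0.00893). These rises were 0.36, 0.27, 0.26 and 0.21. The call of Mrpl51 rests on 1 of its 2 probe sets: the other rose by 0.28 in the fit without passing the test (0.0567). Mrpl10 has a dimmer probe set that read 0.25 lower in the double knockout (log2 difference -0.25, adjusted p = 0.0678, not called), and with both averaged the gene's difference was -0.02, the opposite sign. Mrpl17 was the one member of this group whose Hdac1-knockout arrays also lay all above wild type, by 0.21, without passing the test (0.29). Mrpl37, outside the naming rule, rose by 0.22 (0.0144) and completes the 14 with Mrps18b.

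Among the 10 members that fell, Mrpl36 changed most. Its product is a small large-subunit protein with a bacterial counterpart. It read 7.23, 7.24, 7.02 and 7.07 in wild type, 6.68, 6.75, 6.90 and 6.68 in the Hdac2 knockout and 6.51, 6.64, 5.95 and 6.80 in the double knockout. Both of these groups lay below all wild-type arrays, the double knockout with one array far below the rest. The double knockout differed from wild type by -0.66 ± 0.14 (SE, limma adjusted p = 0.00116), the Hdac2 knockout by -0.39 (0.135) and the double from the Hdac2 knockout by -0.28 (0.15), so a step beyond the loss of Hdac2 alone was not detectable with these arrays.

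Mrpl45 encodes the large-subunit protein by which the ribosome is held at the inner membrane, where its products are inserted. It read 7.25, 7.09, 7.11 and 6.99 in wild type and 6.71, 6.69, 6.40 and 6.80 in the double knockout, with no overlap, and differed by -0.46 ± 0.09 (SE, limma adjusted p = 0.000415). The Hdac1 and Hdac2 knockouts read 7.23 ± 0.06 and 7.11 ± 0.14 (SD), both overlapping wild type. Mrpl34, a large-subunit protein with a bacterial counterpart, read 9.25, 9.07, 8.98 and 9.09 in wild type and 8.74, 8.73, 8.86 and 8.65 in the double knockout (-0.35 ± 0.08, adjusted p = 0.00142). Again the 2 groups were separate, and the single knockouts read 9.21 ± 0.13 and 9.11 ± 0.10.

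The 3 small-subunit genes without a bacterial counterpart that fell were Mrps35, Mrps31 and Mrps25. Mrps35 read 9.32, 9.24, 9.35 and 9.25 in wild type and 9.01, 8.98, 8.80 and 8.97 in the double knockout (-0.35 ± 0.06, SE, limma adjusted p = 0.00023). Mrps25 went from 9.65 ± 0.05 (SD, n = 4) to 9.36 ± 0.06 (0.0039), and Mrps31 from 9.37 ± 0.08 to 9.03 ± 0.21 (0.0032). Arrays of the 2 groups overlapped for Mrps31 and not for Mrps35 or Mrps25. The small-subunit genes with bacterial counterparts Mrps11 and Mrps7 fell by 0.25 (0.00618) and by 0.22 (0.00845), and the large-subunit genes Mrpl39 and Mrpl40 fell by 0.22 (0.00391) and by 0.18 (0.023). The call of Mrpl40 was lost without wild-type replicate 2 or double-knockout replicate 1 or 3 (adjusted p 0.0538 to 0.0799).

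**Figure D2:**
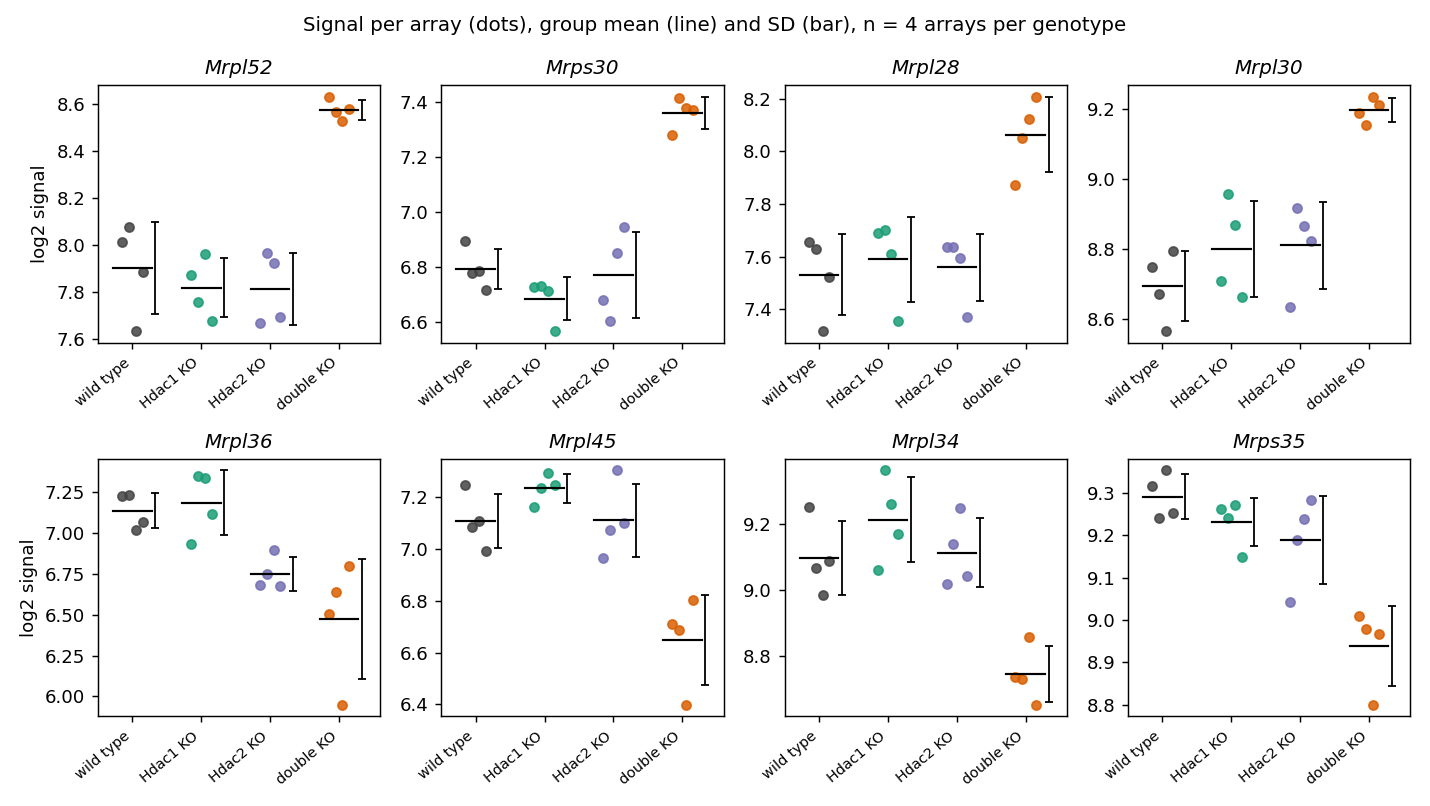
Log2 values of single members on each of the 16 arrays, by genotype. Each point is 1 array, each line the mean of the 4 and each bar their SD. Mrpl52 and Mrps30 stand higher and Mrpl45 lower in the double knockout than on every other array.

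Members rose and fell in both subunits, among those with bacterial counterparts and among those without. Of 46 Mrpl genes 9 rose and 5 fell in the double knockout, with a median change of -0.03, and of 28 Mrps genes 5 rose and 5 fell, with a median of -0.01. The genes were also classed by the subunit to which the lists assign their proteins. Of 29 large-subunit genes with bacterial counterparts 6 rose and 2 fell (median 0.01), and of 19 mitochondria-specific ones 4 rose and 3 fell (-0.04). Of 16 small-subunit genes with bacterial counterparts 3 rose and 2 fell (-0.04), and of 10 mitochondria-specific ones 1 rose and 3 fell (-0.04). The 1 that rose was Mrps36, whose protein is also known from the alpha-ketoglutarate dehydrogenase complex. Mrps18b is listed with the bacterial counterparts and the related Mrps18a with the mitochondria-specific genes. The share called was 30.4% for Mrpl and 35.7% for Mrps genes and 27.6% to 40% in the 4 classes. Beside it stood 38.3% of all probe sets and 57.6% of the brighter ones. Differences between these classes were not tested. Of the 3 genes of the Mrps18 group, which encode related proteins, 1 passed the test. Mrps18b rose from 7.90 ± 0.04 to 8.14 ± 0.12 (SD, n = 4, limma adjusted p = 0.00966), Mrps18a read 9.43 ± 0.06 and 9.41 ± 0.05 (0.819), and Mrps18c 10.72 ± 0.04 and 10.64 ± 0.03 (0.227).

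Most members, 50 of 74, did not pass the test in the double knockout. The smallest differences were those of Mrps16 (0.01, 95% interval -0.20 to 0.22), Mrpl27 (0.01, -0.21 to 0.23), Mrps14 (0.02, -0.11 to 0.15), Mrpl32 (-0.02, -0.16 to 0.12) and Mrps18a (-0.02, -0.15 to 0.11). Mrpl12, a stalk protein that also binds the mitochondrial RNA polymerase, went from 7.65 ± 0.05 to 7.52 ± 0.09 (SD, n = 4, limma adjusted p = 0.18). Mrpl58, a peptidyl-tRNA hydrolase that frees stalled chains, read 8.67 ± 0.08 and 8.62 ± 0.05 (0.591). Mrps22 read 0.13 lower in the double knockout, with all 4 arrays below the wild-type arrays, and missed the threshold (log2 difference -0.13, adjusted p = 0.0591), and it passed under centring and under quantile normalization.

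Loss of one deacetylase changed few members. In the Hdac1 knockout 0 of 74 passed the test (limma), beside 0.0707% of all probe sets (0.0189% higher and 0.0518% lower), and 2 members were higher and 4 lower at an unadjusted p under 0.05, which 8.7% of all probe sets met. For 72 of the 74 (97.3%) the 95% interval of the change lay within 1.4-fold in either direction. Beside this stood 94.1% of all probe sets and 92.6% of the brighter ones. In the Hdac2 knockout 0 members rose and 2 fell, Mrpl50 and Mrpl47, which is 2.7% of members beside 5.59% of all probe sets (2.86% higher and 2.74% lower). At an unadjusted p under 0.05 the limma fit gave 3 higher and 9 lower, where 18.5% of all probe sets met that limit. The interval lay within 1.4-fold for 71 of 74 (95.9%), beside 88.1% of all probe sets and 84.1% of the brighter ones. Of the brighter probe sets 0.132% were called in the Hdac1 and 9.18% in the Hdac2 knockout. The median change of the members was 0.02 in the Hdac1 and -0.04 in the Hdac2 knockout, beside 0.0028 and -0.01 over all probe sets.

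Mrpl50 encodes a mitochondria-specific protein of the large subunit. It read 9.09, 9.02, 9.05 and 9.02 on the wild-type arrays, 8.999, 8.89, 8.93 and 8.91 in the Hdac1 knockout, 8.84, 8.79, 8.75 and 8.87 in the Hdac2 knockout and 9.14, 9.06, 9.02 and 9.06 in the double knockout. Values of the Hdac2 knockout lay below all others, and those of the double knockout were back among the wild-type values. The Hdac2 knockout differed from wild type by -0.23 ± 0.05 (SE, limma adjusted p = 0.00874), and the double from the Hdac2 knockout by 0.26 (0.000436). The gene lies on chromosome 4, as Hdac1 does, 586 RefSeq protein-coding genes away in the order of starts. Mrpl47, a large-subunit protein with a bacterial counterpart, read 9.51, 9.43, 9.38 and 9.49 in wild type and 9.17, 9.15, 9.01 and 9.28 in the Hdac2 knockout, with no overlap (-0.30 ± 0.08, 0.0333). That call was lost in 6 of 16 fits that left out an array, without wild-type replicate 1, 2 or 4 or Hdac2-knockout replicate 1, 2 or 3, at adjusted p values of 0.0591 to 0.0955. A second probe set for Mrpl47 overlapped between the groups and did not pass the test (log2 difference -0.17, 0.219), and with both averaged the gene's call was lost (-0.23, 0.0596).

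The double knockout differed from each single knockout in a larger number of members. Against the Hdac1 knockout 17 members were higher and 15 lower, 43.2% of members beside 38.7% of all probe sets (18.7% higher and 20.1% lower). Against the Hdac2 knockout 15 were higher and 7 lower, 29.7% beside 33.7% (16.8% higher and 16.9% lower). After centring each array the counts were 10 and 25 against the Hdac1 and 11 and 16 against the Hdac2 knockout. The shares above are from the fit without centring, and those over all probe sets after centring are not given here. Against wild type, centring moved all tested probe sets from 3924 higher and 4198 lower to 2878 and 6275. Without centring, the lower count against the Hdac2 knockout was 4 without Hdac2-knockout replicate 4 and 4 without double-knockout replicate 2. These comparisons share the double-knockout arrays with each other and with the comparison against wild type. Mrpl52 stood 0.76 above the Hdac1 and 0.76 above the Hdac2 knockout, Mrps30 0.68 and 0.59, and Mrpl16 0.54 and 0.56 above. Mrpl45 stood at -0.58 and -0.46, Mrpl34 at -0.47 and -0.37, and Mrps35 at -0.29 and -0.25 against them, all past the test. Mrpl9, a large-subunit protein with a bacterial counterpart, read lower in the double than in the Hdac2 knockout (-0.28 ± 0.10, limma adjusted p = 0.0432), a call lost in 9 of 16 fits with an array left out.

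Between the single knockouts 1 member differed, 1.35% of members beside 5.78% of all probe sets and 9.65% of the brighter ones. Of all probe sets 2.96% were higher in the Hdac2 than in the Hdac1 knockout and 2.81% lower. Mrpl13, a large-subunit protein with a bacterial counterpart, read 8.07 ± 0.09 (SD, n = 4) in the Hdac1 and 7.76 ± 0.10 in the Hdac2 knockout, with the Hdac2 arrays all below (-0.31 ± 0.08, SE, limma adjusted p = 0.028). The call was lost without Hdac1-knockout replicate 1, 2 or 3, or Hdac2-knockout replicate 1, 3 or 4 (0.0573 to 0.0863).

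The interaction tests whether the change in the double knockout departs from the sum of the changes in the single knockouts. It passed the test for 17 members, 13 above that sum and 4 below. That is 23% of members beside 23.3% of all probe sets (11.7% above and 11.6% below). Among the brighter probe sets the share was 35.9%. The median interaction over the members was 0.0083, beside -0.0046 over all probe sets. After centring each array 9 were above and 11 below, and the median was -0.0861. The share over all probe sets after centring is not given here for the interaction. Several of the genes with the largest rises or falls in the double knockout were among the 17. Of those that rose, these included Mrpl52 with 0.85 ± 0.13 (SE, limma adjusted p = 0.000233), Mrps30 with 0.70 ± 0.10 (0.000114) and Mrpl16 with 0.63 ± 0.12 (0.00124). Of those that fell, they included Mrpl45 with -0.59 ± 0.12 (0.0023) and Mrpl34 with -0.48 ± 0.11 (0.00383). For Mrpl30 and Mrpl36 the departure did not pass the test (0.28, 0.0678, and -0.32, 0.28). Nor did it for Mrps36 (0.22), Mrps35 (-0.19) or Mrps31 (-0.07).

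Another pattern among the 17 was a lower level in each single knockout and a level near wild type in the double. It was plainest for Mrps9, a small-subunit protein with a bacterial counterpart. Mrps9 read 8.64, 8.45, 8.45 and 8.66 on the wild-type arrays, 8.31, 7.96, 8.12 and 7.98 in the Hdac1 knockout, 8.49, 7.91, 8.35 and 7.95 in the Hdac2 knockout and 8.51, 8.86, 8.76 and 8.74 in the double knockout. The Hdac1-knockout arrays lay all below wild type, those of the Hdac2 knockout overlapped it, and those of the double knockout lay above both single knockouts. The differences from wild type did not pass the test in any of the 3 genotypes (-0.46, -0.37 and 0.16, limma adjusted p = 0.276, 0.0931 and 0.336). The interaction was 0.995 ± 0.17 (0.00055), the largest among the members, and the double knockout stood 0.62 above the Hdac1 (0.000609) and 0.54 above the Hdac2 knockout (0.00257). Mrpl50 (interaction 0.37, 0.000779), Mrpl47 (0.44, 0.00797) and Mrps14 (0.32, 0.0136), the last a small-subunit protein with a bacterial counterpart, also had lower group means in both single knockouts than in wild type and in the double knockout. Mrps14 read 9.32 in wild type, 9.14 and 9.19 in the Hdac1 and Hdac2 knockouts and 9.33 in the double knockout. The pattern was picked out after the values were seen.

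**Figure D3:**
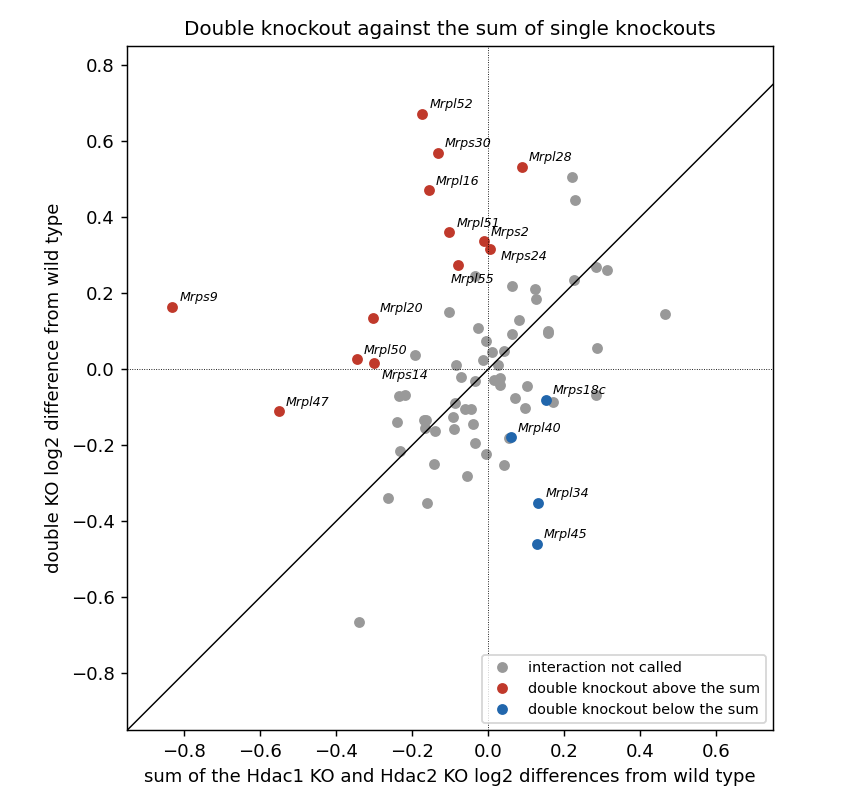
The sum of the 2 single-knockout changes (horizontal axis, log2) against the double-knockout change (vertical axis, log2), 1 point per member; on the diagonal the changes add up. Mrpl52 and Mrps30 lie above and Mrpl45 below the diagonal through a change in the double knockout, and Mrps9 lies above it through lower single-knockout values.

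Genes that work with the mitochondrial ribosome were counted in the same fit. Of 14 measured translation factors 3 rose and 7 fell in the double knockout, with a median change of -0.24. That is 71.4% of the list, beside 38.3% of all probe sets and 57.6% of the brighter ones. Mtrf1, of the release factor family, fell by 0.76 ± 0.09 (SE, limma adjusted p = 2.49e-06), the initiation factor Mtif3 by 0.43 ± 0.05 (5.95e-06) and the elongation factor Tsfm by 0.63 ± 0.13 (0.000771). The release factor Mtrf1l rose by 0.39 ± 0.08 (0.000679). The number that rose was 1 after centring each array and 1 without wild-type replicate 2.

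Of 21 measured genes of ribosome assembly and rRNA modification 3 rose and 9 fell, with a median of -0.14, and 7 of these changed by at least 1.4-fold. The share called was 57.1%, beside 38.3% of all probe sets and 57.6% of the brighter ones, where a change called at 1.4-fold was met by 16.4% and 24.7%. Mpv17l2, an inner-membrane protein needed for ribosome assembly, rose by 1.14 ± 0.12 (SE, limma adjusted p = 9.35e-07), and Mrm1, which methylates the large rRNA, by 0.79 ± 0.10 (5.46e-06). Mettl15, a methyltransferase of the small rRNA, fell by 0.85 ± 0.10 (2.29e-06) and Gtpbp10, a GTPase of large-subunit assembly, by 0.84 ± 0.095 (2.46e-06). These changes were larger than that of any ribosomal protein gene, whose extremes were 0.67 and -0.66, on the same scale of difference.

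Of 13 measured genes that maintain, copy or process mitochondrial DNA and RNA 4 rose and 5 fell (median -0.06), 6 of them by at least 1.4-fold. The share called was 69.2%, beside the same 38.3% and 57.6%, and 16.4% and 24.7% at 1.4-fold. The exoribonuclease gene Pnpt1 fell by 0.999 ± 0.08 (SE, limma adjusted p = 6.02e-08), Prorp, the nuclease of mitochondrial RNase P, by 0.79 ± 0.07 (8.95e-08), the transcription elongation factor Tefm by 0.67 ± 0.07 (1.1e-06) and the DNA helicase Twnk by 0.67 ± 0.09 (8.14e-06). The number that rose was 2 after centring each array, and 2 without wild-type replicate 1 or without double-knockout replicate 1. Of 19 measured mitochondrial tRNA synthetase genes 3 rose and 5 fell (median -0.06), which is 42.1% beside the same 38.3% and 57.6%, 0 of them by 1.4-fold. Rars2, for arginine, fell by 0.48 ± 0.07 (2.1e-05), Lars2, for leucine, by 0.43 ± 0.08 (0.000282) and Tars2, for threonine, by 0.31 ± 0.07 (0.00256), while Hars2, for histidine, rose by 0.44 ± 0.09 (0.000647). Ribosomal proteins under other symbols gave 1 fall among 3 measured: the small-subunit gene Ptcd3 fell by 0.30 ± 0.07 (0.00138), and Dap3 and Chchd1 differed by -0.06 (0.599) and 0.01 (0.951).

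In the Hdac1 knockout 6 of these 70 genes had an unadjusted p under 0.05 (limma), a limit that 8.7% of all probe sets met. There 0 of the 70 passed the test, beside 0.0707% of all probe sets. In the Hdac2 knockout 4 of the 70 did, a share near the 5.59% of all probe sets, named here after their values were seen: Prorp fell by 0.48 (limma adjusted p = 0.000531), Mettl15 by 0.39 (0.026) and Rpusd4, a pseudouridine synthase, by 0.27 (0.0483), and the initiation factor Mtif2 rose by 0.39 (0.0476). Prorp and Mettl15 stood at -0.79 and -0.85 in the double knockout against wild type.

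**Figure D4:**
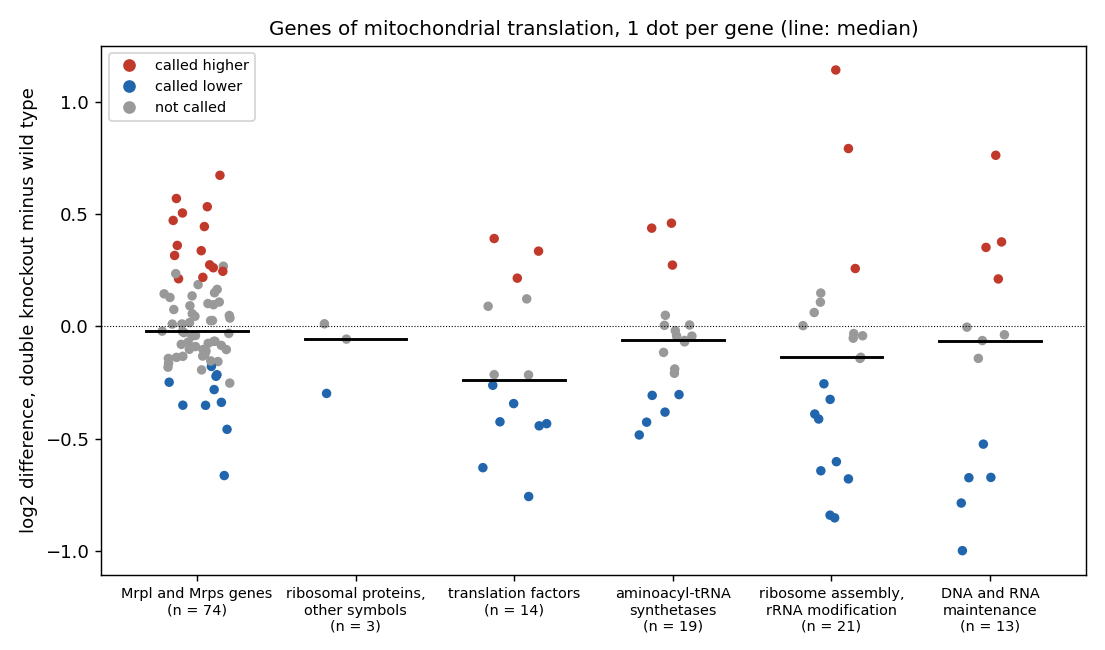
Log2 change in the double knockout against wild type for the ribosomal protein genes and the lists of genes that work with them, 1 point per gene, coloured where the gene passed the test; the bar is the median of each list. The ribosomal protein genes span -0.66 to 0.67 around a median of -0.02, and the assembly list reaches from -0.85 to 1.14.

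The members are spread over the genome, with at most 11 on one chromosome, chromosome 11, and 8 on chromosome 17. Of the 4 members on chromosome 4, where Hdac1 lies, Mrps15 is the nearest, 59 genes away. By their numbering, 6 of the 74 probe sets used stand among probe sets of another chromosome than the gene's: those of Mrpl27, Mrpl41, Mrpl48, Mrpl51, Mrps33 and Mrps36. Such probe sets may read related copies, which was not tested. With each gene read by a probe set numbered on its own chromosome, which leaves out 3 members and changes the probe set of 3, 12 members rose and 10 fell in the double knockout.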

How the data were processed

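Log2-scale expression values, 1 per probe set and array, were used as deposited by the authors. The submitters' processing notes name MAS5 and the series' design text also GeneSpring, but how the values were normalized is not stated in the sources used here. The log base is inferred: the values reach 12.89, which is a brightness of 7566 in base 2 and 394439 in base e, beyond a 16-bit scanner's 65536, though rescaling could pass that range. Probe sets were named by the platform annotation (21218 of 35556 with exactly 1 symbol, 1881 with several, 12457 with none).

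A linear model with 4 genotype means was fitted to all 16 arrays with limma 3.58.1 in R 4.3.3 (lmFit, contrasts, eBayes, 12 residual degrees of freedom). P-values were two-sided, adjusted by Benjamini-Hochberg over 21218 probe sets, and called under 0.05. Each SD is over a genotype's 4 arrays, and 4 arrays a group limit the precision. The script's calls were tested on simulated data. Promoters came from RefSeq (GRCm38.p6).

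The members, lists and tests were chosen with earlier results of these data known. Genes named were, for the double knockout against wild type, up to 12 called members in each direction with the smallest adjusted p, and up to 6 each way in other comparisons. To these were added up to 5 smallest uncalled changes, the 3 highest and 3 lowest wild-type means, the Mrps18 genes, Mrpl12, Mrpl58, and up to 4 genes of each other list; names outside this rule are marked. Mrpl24, Mrpl43, Mrpl53 and Mrps6 are not analysed here. Alternatives changed the scaling, the filter on dim probe sets, the probe sets tested, the size limit, the variance prior, the probe set per gene, the replicate block and the arrays used.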

Additional observations from a re-analysis of the deposited data

Results flagged for a closer look

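Among 59 genes examined in 4 groups each, 236 groups in all, 17 had a highest or lowest array far from the other 3 (a gap over range above Dixon's critical value), and chance gives about 1 in 20. In wild type, replicate 3 read low for Mrps24 (8.88) and Mrpl10 (8.60) and high for Mrpl39 (10.51), and replicate 2 low for Pnpt1 (7.20). In the Hdac1 knockout, replicate 4 read low for Mrps30 (6.57) and Mrpl12 (7.35), and replicate 1 high for Mrps7 (9.79), Mrpl58 (8.87) and Tefm (8.21). In the Hdac2 knockout, replicate 4 read low for Mrpl28 (7.37), replicate 1 low for Mrpl51 (9.92), replicate 2 high for Mrpl13 (7.92) and Mpv17l2 (7.70), and replicate 3 low for Hars2 (4.82). In the double knockout, replicate 4 read low for Mrpl10 (8.83) and high for Mrpl48 (10.96) and Mtrf1l (8.19). Without that array Mrpl48 was called lower there (limma adjusted p = 0.009), and it missed the threshold with all arrays (0.089).

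The change on losing one deacetylase differed with the presence of the other, by the interaction term, for 16 of the named members. Several of these were named because their interaction was called, so this count depends on the naming. Over all 74 members the share called was 23%, beside 23.3% of all probe sets and 35.9% of the brighter ones. The interaction was positive for Mrps9 (0.995), Mrpl52 (0.85), Mrps30 (0.70), Mrpl16 (0.63), Mrpl51 (0.46), Mrpl28 (0.44), Mrpl47 (0.44), Mrpl50 (0.37), Mrps2 (0.35), Mrpl55 (0.35), Mrps14 (0.32) and Mrps24 (0.31). It was negative for Mrpl45 (-0.59), Mrpl34 (-0.48), Mrpl40 (-0.24) and Mrps18c (-0.23). For Mrpl40 the call was lost in 14 of 16 fits with an array left out.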

How the results depend on the processing

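Of 91 named results, 83 stayed on their side of the threshold in all 16 fits that left out an array, 7 lost the call in at least 1 and 1 gained it. Many of these results were named for a small adjusted p or a small uncalled change in the same data. The count of 83 therefore depends on that choice. Without one array each, the counts ranged as follows: members lower in the Hdac2 knockout 1 to 3, members lower in the double than in the Hdac2 knockout 4 to 8, members lower in the Hdac2 than in the Hdac1 knockout 0 to 2, translation factors higher 1 to 4 and maintenance genes higher 2 to 4. Centring each array gave, for the double knockout against wild type, 24 members lower and a median of -0.11. In that comparison all tested probe sets stood at 2878 higher and 6275 lower after centring. Against the Hdac1 knockout centring gave 10 higher, 25 lower and a median of -0.12, and against the Hdac2 knockout 16 lower and a median of -0.0661. For the interaction it gave 11 lower and a median of -0.0861, with 1 translation factor higher, 8 synthetases lower and 2 maintenance genes higher. With all probe sets of the table tested 1 member was lower in the Hdac2 knockout and 0 between the single knockouts. Averaging the probe sets of a gene left 1 lower in the Hdac2 knockout and reversed Mrpl10 in the double knockout to -0.0178. Requiring 1.4-fold as well left 4 higher and 1 lower in the double knockout, 4 and 2 against the Hdac1 knockout, 5 and 0 against the Hdac2 knockout, 4 and 1 for the interaction, and 0 lower both in the Hdac2 knockout and between the single knockouts. On the lists it left 0 translation factors higher and 2 lower, 0 synthetases higher and 0 lower, 5 assembly genes lower, 0 proteins under other symbols lower and 1 maintenance gene higher. The cause of these shifts was not tested, beyond the construction of the limit.

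Replicate numbers did not pair the arrays: same-numbered arrays of different genotypes had deviations correlated at -0.148 to 0.087 over 24 pairs, 0 of them over 0.1, and 2 of 16 arrays correlated best with their own number. A replicate block left 14 members higher and 10 lower in the double knockout and 1 lower in the Hdac2 knockout. Reading genes by own-chromosome probe sets, an alternative chosen after seeing the data, lost the call of Mrpl51 (0.28, limma adjusted p = 0.0567). Limits remain. The deposited normalization is unknown, and the double-knockout arrays had higher medians, so the balance of higher and lower calls follows the scaling. Transcript levels on 4 pools per genotype say nothing of the ribosomal proteins themselves.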
